A study of Mus musculus with 8 samples.

Results

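The genes of cholesterol synthesis, uptake and sterol sensing were followed in mouse liver by RNA sequencing. The set held 33 of the 24317 genes listed in the count table. Its members were chosen by name from knowledge of the pathway, with earlier results of these data known. All 33 had enough reads to be tested. The 8 libraries came from livers of C57BL/6 mice, an inbred laboratory strain. Normal chow was the diet behind 4 of them. The other 4 came from animals fed a high-salt chow of 6% NaCl for 6 weeks. The labels give no age or sex, name no allele or drug in either group and do not say how long the normal chow was given as such. Nor do they state that the libraries are from separate animals, so the p-values here reflect the spread between these samples, which may be technical. Titles of high-salt libraries begin with the letter N, and every direction below would turn if that N stood for normal.

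Cholesterol is built from acetyl-CoA through mevalonate, farnesyl diphosphate, squalene and lanosterol. The genes of nearly every step are switched on together by SREBP2, the transcription factor encoded by Srebf2. When sterol is plentiful in the endoplasmic reticulum, INSIG proteins hold the escort SCAP and its cargo SREBP2 there. When sterol is scarce, SCAP carries SREBP2 to the Golgi, where a pair of proteases cut it free to enter the nucleus. Excess sterol acts through oxysterols on the nuclear receptors LXR alpha and LXR beta, which raise cholesterol export and lower uptake. The liver is a main site of both arms, and its synthesis genes are known to follow feeding and time of day. Feeding state and time of collection are not given in the labels.

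In each library 16620368 to 18639685 reads were counted to genes. Total counts, genes detected, the mitochondrial share and the share of the 10 most abundant genes did not pass a test between the diets (exact permutation test, two-sided, smallest p = 0.171 and smallest adjusted p = 0.533 over the measures; the smallest p the design allows is 0.0286). High salt 2 stood apart on the first principal component of all tested genes (score -38.3, the others -11.9 to 26.4), and normal chow 1 on the second (-35.2, the others -4.38 to 20.6). The hepatocyte markers summed to between 124428 and 141921 CPM on normal chow and between 125590 and 131412 CPM on high salt, in CPM, the usual depth-scaled count, here after TMM scaling of library size. Of these 6 markers 1 passed the diet test described below, against 0.300% of all tested genes. The 5 markers of sinusoidal endothelium summed to 252 to 275 CPM on normal chow and 226 to 246 CPM on high salt. For them every high-salt sum was thus below every normal chow sum, although 0 of the 5 passed that test. The pancreas markers, a check for neighbouring tissue, summed to at most 0.274 CPM.

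The data showed 2 things about these genes. First, no member passed the test between the diets, although Soat2 and Fdps were the nearest to it on the higher side and Ebp on the lower. Second, the genes that SREBP2 drives varied as a group more from library to library than the usual gene did. Most of them varied together within both diets. The second pattern is described before the first, because it is part of the error of the diet comparison. In RNA from whole liver, fewer cells of a type and less RNA per cell cannot be told apart, and this holds for every level below.

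Of the 33 members, 20 were counted as textbook SREBP2 targets, namely Acat2, Insig1, Stard4 and 17 enzymes of synthesis. This split, too, was made with earlier results of these data known. The other 13 were Srebf2 itself and the genes of processing, transport, esterification and LXR signalling, with the enzymes Ggps1 and Lbr. Whether SREBP2 also acts on any of these 13, Srebf2 among them, was not tested. Each gene's log2 CPM was set against its own mean over the 8 libraries. The mean deviation of the 20 targets was 0.22, -0.18, 0.16 and -0.46 in normal chow 1 to 4, and -0.03, -0.58, 0.40 and 0.46 in high salt 1 to 4. Normal chow 4 and high salt 2 were thus the low libraries, and high salt 3 and 4 the high ones, with both diets on either side of the mean. In high salt 4 all 20 targets were above their own mean, and in high salt 2 none was (0 of 20). In high salt 3 and normal chow 3 the count was 19, in normal chow 1 it was 15, in high salt 1 it was 11, in normal chow 2 it was 3 and in normal chow 4 it was 2. The other 13 members had mean deviations between -0.18 and 0.09.

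**Figure D1:**
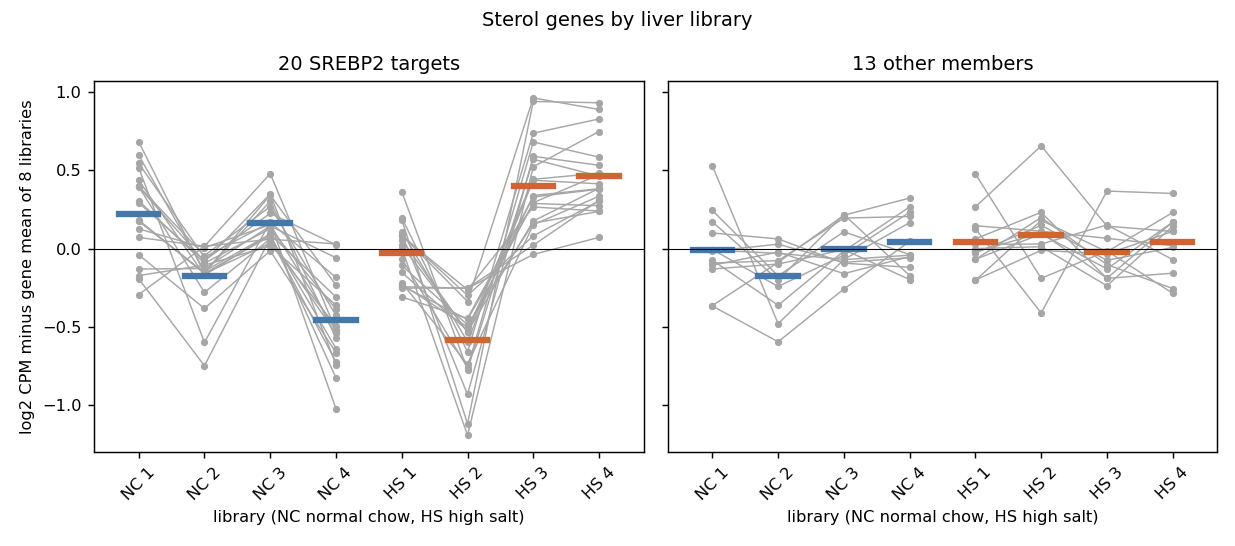
Log2 CPM of each gene minus its mean over 8 libraries (y axis) by library (x axis, NC normal chow, HS high salt), for 20 SREBP2 targets (left) and 13 other members (right). Grey points and lines are genes and coloured bars are means, and the target means run from -0.58 in HS 2 to 0.46 in HS 4 while those of the other members stay between -0.18 and 0.09.

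The same libraries were low for most targets. Within normal chow, library 4 was the lowest for 16 of the 20 targets, and within high salt, library 2 was the lowest for 19. For 16 targets both held, which is 80.0% of them, against 1 of the 13 other members (7.69%; the gene was Srebf2) and 8.32% of all 13341 tested genes. The targets outside this count were Fdps, Tm7sf2 and Ebp, lowest on normal chow in library 2, and Stard4, lowest there in library 1. Both low libraries were picked by the mean of the 20 targets. A higher share among the targets than among other genes was therefore partly built in, and it carries no test. Neither low library was low in depth, since normal chow 4 had the largest total of all (18639685 counts) and high salt 2 had 17459514. High salt 2 also had the highest summed level of 5 B and plasma cell markers, 66.4 CPM against 4.98 to 11.8 CPM on normal chow. Its sum of 5 Kupffer cell markers was the highest too, 444 CPM against 383 to 422 CPM on normal chow. So was that of 5 T and NK cell markers, 6.02 CPM against 3.24 to 4.75 CPM on normal chow. In the same order, the lowest high-salt sums were 8.42, 346 and 2.37 CPM. The mitochondrial share of high salt 2, 7.49%, was the lowest of the 8. Normal chow 4 had none of these, and had the highest sum of 5 erythroid markers, 173 CPM. The part of these features in the low sterol genes was not tested.

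How far the genes moved can be seen in Hmgcs1, the cytosolic HMG-CoA synthase of the pathway. Its gene lies at chr13:119690379-119708260 on the forward strand (GRCm38). It stood at 467, 216, 368 and 161 CPM in normal chow 1 to 4, and at 372, 151, 627 and 623 CPM in high salt 1 to 4. High salt 2 was the lowest library of all and normal chow 4 the next, high salt 3 and 4 were the highest, and the groups overlapped. From lowest to highest the change was 4.16-fold, and 2.47% of the 12346 genes averaging 1 CPM or more ranged as widely. Squalene epoxidase, Sqle, the oxygen-dependent step often counted as the later control point of the pathway, behaved alike. It stood at 126, 90.7, 122 and 57.5 CPM on normal chow and at 96.2, 42.0, 138 and 161 CPM on high salt, a 3.84-fold range that 3.01% of genes matched. High salt 2 was the lowest and high salt 4 the highest library for Sqle.

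By role, the spread was widest at the front and middle of the pathway. The median ratio of highest to lowest library was 2.36 for the 8 early mevalonate genes, 2.50 for the 3 genes from squalene to lanosterol and 1.89 for the 9 from lanosterol to cholesterol. It was 1.71 for the 6 genes of SREBP processing and sensing, 1.53 for the 4 of transport and esterification and 1.39 for the 3 of the LXR arm. Over the 20 targets it was 2.06, over the other members 1.39 and over all tested genes 1.51. The biological coefficient of variation that edgeR fitted within the groups gave the same order, with medians of 0.261, 0.126 and 0.132. Among the steadiest members were Nr1h3, which encodes LXR alpha (1.18-fold over the 8 libraries), Mbtps2, a Golgi protease that cuts SREBP2 (1.21-fold), and Lbr, the lamin B receptor with sterol reductase activity (1.24-fold). These are descriptions and were not tested.

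The targets moved as a block. After the mean of each diet had been removed, all 190 pairs of targets were positively correlated over the 8 libraries, with a median Pearson r of 0.88 and a range of 0.36 to 0.99. Of these pairs 65.3% were above 0.8, against 5.13% of the 78 pairs of other members, whose median r was 0.00, and 1.89% of the 88984470 pairs of all tested genes. The closest pair was Fdps, which makes farnesyl diphosphate, with Sc5d, the late sterol desaturase (r = 0.99), followed by Hmgcs1 with Cyp51, the lanosterol demethylase (r = 0.99). The loosest was Tm7sf2, a sterol reductase, with Insig1 (r = 0.36). All of these values share the same 8 libraries and their scaling, with 6 degrees of freedom, and carry no test.

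**Figure D2:**
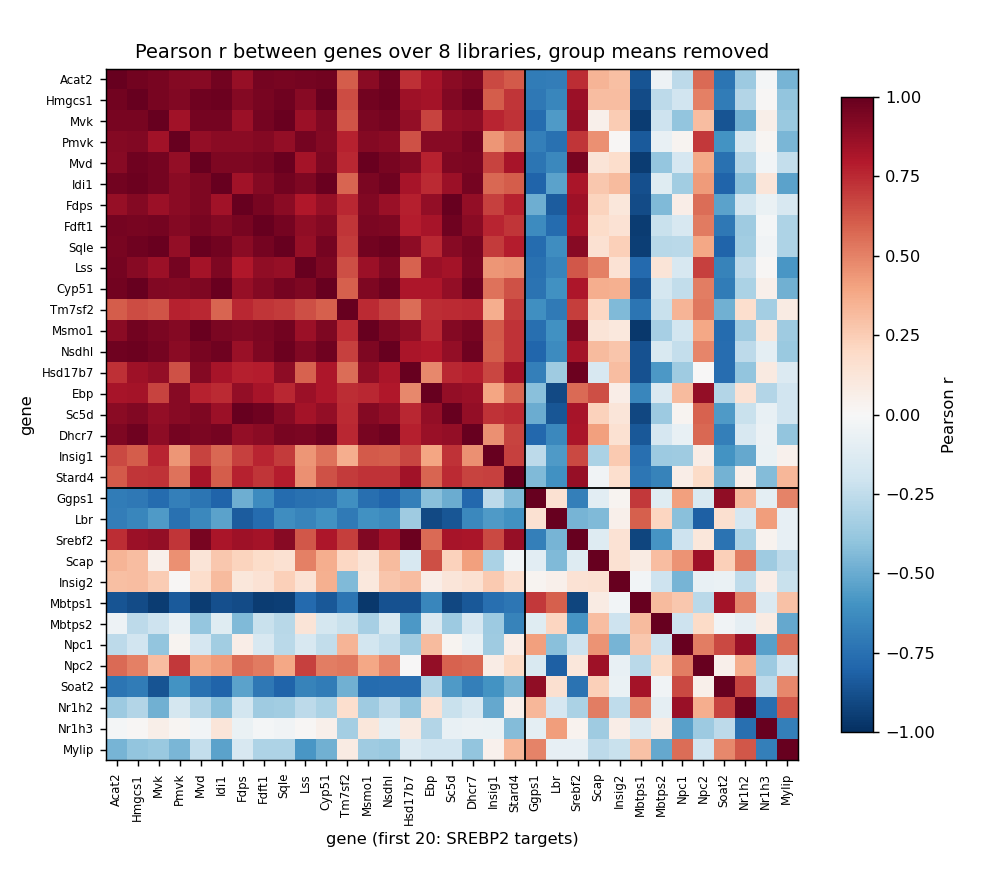
Pearson r of log2 CPM between each pair of the 33 members over 8 libraries with diet means removed (both axes are genes, colour is r from -1 to 1). The 20 SREBP2 targets, before the black lines, form a block in which all 190 pairs are positive with a median of 0.88, while the 13 other members have a median of 0.00.

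Each target was also set against the mean of the remaining 19. Hmgcs1 and Sqle were the closest (r = 0.99 each), then Mvd, the mevalonate diphosphate decarboxylase (0.98), Nsdhl, which removes methyl groups from the sterol ring (0.98), and Fdft1, squalene synthase (0.97). Msmo1, the methylsterol oxidase, was at 0.97, and Cyp51, Mvk (mevalonate kinase), Idi1 (isopentenyl diphosphate isomerase), Acat2 (cytosolic acetoacetyl-CoA thiolase) and Dhcr7 (the final reductase of the Kandutsch-Russell branch) were between 0.96 and 0.97. Sc5d was at 0.94, Fdps at 0.93, Pmvk (phosphomevalonate kinase) at 0.92 and Lss (lanosterol synthase) at 0.89. The loosest were Hsd17b7, the keto-reductase of demethylation (0.84), Ebp, the sterol isomerase (0.82), Stard4, a cytosolic sterol carrier (0.74), Tm7sf2 (0.71) and Insig1 (0.64). Within normal chow alone r was 0.24 for Stard4 and 0.50 for Insig1, against 0.92 and 0.99 within high salt. Every other target was at 0.72 (Hsd17b7) or above within normal chow.

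Among the members outside the targets, Srebf2 was the closest to the target mean (r = 0.88). Its own level was 61.7, 63.1, 67.2 and 58.9 CPM on normal chow and 73.8, 50.8, 87.1 and 86.2 CPM on high salt. The normal chow libraries lay close together, while on high salt library 2 was the lowest of all 8 and libraries 3 and 4 were the highest. Mbtps1, the protease that makes the initial cut in SREBP2, ran the other way (r = -0.94). It stood at 56.0, 55.3, 53.8 and 63.3 CPM on normal chow and at 58.9, 66.3, 49.4 and 50.6 CPM on high salt, so that its highest library in each diet was the lowest for most targets. Its range was only 1.34-fold. Soat2, Ggps1 and Lbr were also negative (-0.74, -0.72 and -0.69), Mylip was at -0.34, Npc2 at 0.49 and Nr1h3 at -0.02.

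The sequences just before the start of transcription are shown for 3 of the closest targets and for Mbtps1, which ran opposite to them. SREBP proteins bind sterol regulatory elements weakly on their own and are known to work with NF-Y, which binds CCAAT, and with Sp1. Each sequence is the 250 bases upstream of the RefSeq start in GRCm38.p6, 5′ to 3′ on the strand of the gene. It is in lower case, with capitals for CCAAT on either strand (ATTGG where it lies on the other strand) and for TCACNCCAC, a form of the sterol regulatory element. Hmgcs1 is at chr13:119690101-119690350 (forward), Mvd at chr8:122443423-122443672 (reverse), Nsdhl at chrX:72918271-72918520 (forward) and Mbtps1 at chr8:119558762-119559011 (reverse).
Hmgcs1: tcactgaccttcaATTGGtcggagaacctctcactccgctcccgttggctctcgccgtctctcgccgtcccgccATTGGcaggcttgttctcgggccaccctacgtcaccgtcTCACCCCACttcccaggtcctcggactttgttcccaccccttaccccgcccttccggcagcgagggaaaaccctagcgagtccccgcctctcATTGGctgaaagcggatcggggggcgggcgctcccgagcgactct
Mvd: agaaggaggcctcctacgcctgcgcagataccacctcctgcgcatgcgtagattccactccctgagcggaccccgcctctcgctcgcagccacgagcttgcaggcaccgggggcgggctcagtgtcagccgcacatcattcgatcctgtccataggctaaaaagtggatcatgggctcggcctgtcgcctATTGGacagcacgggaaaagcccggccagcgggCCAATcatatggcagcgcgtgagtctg
Nsdhl: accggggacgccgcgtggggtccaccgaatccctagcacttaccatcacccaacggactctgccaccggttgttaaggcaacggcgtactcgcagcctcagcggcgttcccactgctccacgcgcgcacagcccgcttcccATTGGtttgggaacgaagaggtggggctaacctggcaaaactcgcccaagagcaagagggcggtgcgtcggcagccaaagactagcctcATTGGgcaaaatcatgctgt
Mbtps1: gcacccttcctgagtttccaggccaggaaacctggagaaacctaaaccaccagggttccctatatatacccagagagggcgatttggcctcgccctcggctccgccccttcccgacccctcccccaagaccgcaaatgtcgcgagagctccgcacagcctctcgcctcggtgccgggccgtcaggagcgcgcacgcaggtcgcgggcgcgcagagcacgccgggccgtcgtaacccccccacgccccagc

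In Hmgcs1, 3 CCAAT boxes on the reverse strand surround a TCACNCCAC at positions -137 to -129 from the start, which overlaps none of them. Mvd and Nsdhl hold 2 CCAAT boxes each, within the 109 bases before the start, and Mbtps1 holds none. RefSeq promoters were matched to 27 of the 33 members, in windows of 300 bases that run 50 bases past the start. CCAAT stood in 15 of the 16 targets matched (93.8%), but not in Acat2, which followed the other targets at r = 0.96. Of 11 other members 6 held it (54.5%), namely Srebf2, Npc2, Insig2, Mylip, Lbr and Ggps1. In that order, their r with the target mean was 0.88, 0.49, 0.21, -0.34, -0.69 and -0.72. A link between the box and the co-variation was not tested. CCAAT stood in at least 1 promoter of 41.1% of the 27025 genes and in 37.4% of the 32851 promoters in the table. Among the 27 members matched, TCACNCCAC stood in Hmgcs1 alone. Fdft1, Fdps, Npc1, Soat2, Sqle and Stard4 had no match and were not searched. The motif stood in at least 1 promoter of 1.44% of all genes and in 1.24% of all promoters. The LXR motif, searched as 2 copies of AGGTCA with 4 bases between them, stood in none of the members' windows (0 of 27) and in 0.0152% of promoters. A match of letters is not a bound site.

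Insig1 deserves its own account, because it is both a sensor and a sensitive SREBP target. It encodes the membrane protein that holds SCAP when sterol is present. It stood at 354, 438, 604 and 302 CPM on normal chow and at 458, 361, 521 and 511 CPM on high salt. On high salt its order was close to that of the other targets, low in library 2 and high in 3 and 4. On normal chow, library 1 was low for Insig1 although 15 of 20 targets were above their mean in it, and library 3 held the highest value of all 8. Over the 8 libraries, Insig1 was positively correlated with 19 of the 19 other targets (median r 0.63), but no relation passed adjustment. Of 32 relations tested with the other members, 0 had an adjusted p below 0.05 by Pearson's r (smallest 0.249) or by Spearman's rho (smallest 0.235; exact permutation over 40320 pairings, two-sided, Benjamini-Hochberg). Unadjusted, 3 were below 0.05 by Pearson and 5 by Spearman. For Fdft1, r was 0.77 (exact p = 0.0330, adjusted 0.249) and rho 0.76 (exact p = 0.0368, adjusted 0.235). Without normal chow 3 and 4, the libraries farthest from the Insig1 median, r for Fdft1 was 0.64. For Mbtps1, r was -0.75 (exact p = 0.0336, adjusted 0.249) and rho -0.76 (exact p = 0.0368, adjusted 0.235), with r = -0.76 after the same libraries were left out.

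The diet comparison asks whether the high-salt chow was accompanied by a change in any of these genes. By edgeR's quasi-likelihood test with Benjamini-Hochberg adjustment over all 13341 tested genes, 0 of 33 members were called in either direction at an adjusted p below 0.05. The background is low, since 40 genes (0.300%) were called in all, 20 higher and 20 lower. DESeq2 called 1 member higher (Soat2) and limma-voom called 0. At an unadjusted p below 0.05, 2 members were higher (Soat2 and Fdps) and 1 lower (Ebp), while 5.33% of all genes were higher and 5.60% lower at that level. The fold change was positive for 21 members and negative for 12, against 51.3% positive over all genes. The median log2 fold change of high salt over normal chow was 0.07 over the members, 0.13 over the targets, 0.03 over the other members and 0.01 over all tested genes.

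These counts depended on single libraries. Without high salt 2, Hsd17b7 was called higher (1 member), among 8 genes higher and 10 lower over all tested genes. In that setting 6 members were higher at an unadjusted p below 0.05. High salt 2 was the lowest high-salt library for most targets, so leaving it out raises their high-salt means. With normal chow 1 and high salt 2 left out together, an alternative chosen after seeing the data, again 1 member was called higher (Hsd17b7). Over all tested genes 26 were called higher and 43 lower there. In that setting 9 members were higher at the unadjusted level and the median over the targets was 0.37. Shares of all genes at the unadjusted level were not counted with libraries left out. Without normal chow 4, the median over the targets was -0.02, and without high salt 4 it was 0.0013.

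**Figure D3:**
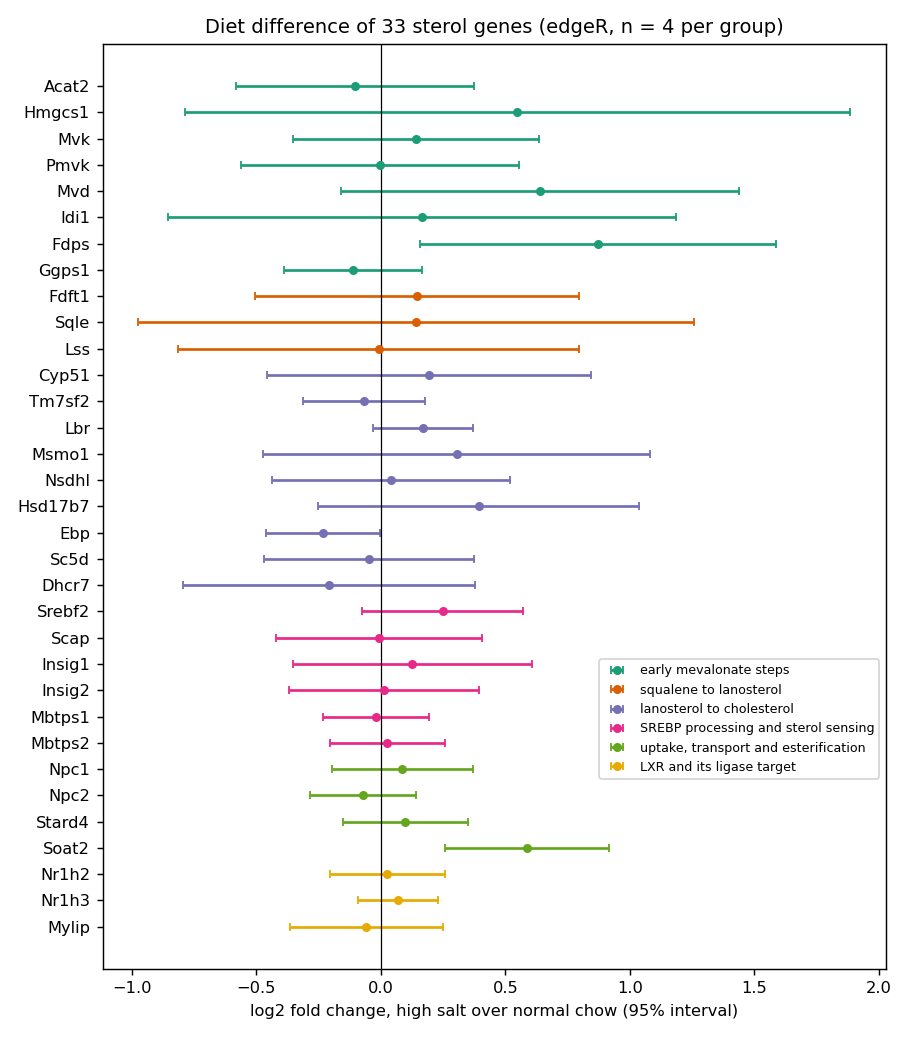
Log2 fold change of high salt over normal chow (x axis) for 33 members (y axis), coloured by role, with 95% intervals from edgeR (n = 4 per group). The intervals of Soat2 (0.26 to 0.92) and Fdps (0.16 to 1.59) lie above 0 and that of Ebp (-0.46 to -0.01) below it, and Hmgcs1 has the widest (-0.79 to 1.88).

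Of the 8 early mevalonate genes, 5 had positive and 3 negative values, with a median log2 fold change of 0.15. For Hmgcs1 the means were 302.9 ± 140.2 CPM on normal chow and 442.9 ± 229 CPM on high salt (SD, n = 4 per group), a log2 fold change of 0.55 ± 0.55 (SE; edgeR adjusted p = 0.80). Its interval of -0.79 to 1.88 holds both a fall and a rise of more than 1.5-fold. Mvd had 24.7, 19.4, 25.1 and 16.0 CPM on normal chow and 29.1, 16.0, 42.3 and 45.1 CPM on high salt, and a log2 fold change of 0.64 ± 0.34 (adjusted p = 0.567). High salt 1, 3 and 4 were above every normal chow library for Mvd, and high salt 2 was level with the lowest of them. Idi1 (0.17), Mvk (0.14), Pmvk (-0.01), Acat2 (-0.10) and Ggps1 (-0.11) were all within 1 SE of 0 on the log2 scale. Ggps1 makes the geranylgeranyl groups that anchor small GTPases and lies on a side branch.

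Fdps stands at the branch to sterols, dolichol and prenyl groups. It stood at 5.16, 3.47, 6.19 and 3.54 CPM on normal chow and at 6.28, 4.65, 11.6 and 11.0 CPM on high salt. High salt 1, 3 and 4 were above every normal chow library, and high salt 2 lay among them. The log2 fold change was 0.87 ± 0.32 (edgeR unadjusted p = 0.0217, adjusted p = 0.359), from 4.59 ± 1.32 to 8.39 ± 3.45 CPM. The level needs care. Per kilobase of merged exons Fdps was at 1.54 CPM, with 60 reads in its lowest library, while Idi1 just before it and Fdft1 just after it were at 52.0 and 43.6. In GENCODE M21, also on GRCm38, the gene model Gm43738 shares 81.3% of the bases of the longest coding Fdps transcript, on the same strand. No count is listed for Gm43738, and reads in shared exons may not have been counted to either gene.

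Between squalene and lanosterol, the 3 genes differed little in their means. Fdft1 was at 175 ± 44.4 and 194 ± 61.4 CPM, with a log2 fold change of 0.15 ± 0.28. Sqle was at 99.2 ± 32.1 and 109 ± 52.3 CPM, with 0.14 ± 0.46 (adjusted p = 0.954). Lss, which closes the ring system, was at 81.9 ± 31.8 and 81.4 ± 24.7 CPM, with -0.01 ± 0.34. The interval for Sqle ran from -0.97 to 1.26, so differences of nearly 2-fold either way were not excluded.

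Of the 9 genes from lanosterol to cholesterol, 5 were positive and 4 negative. Ebp moves a double bond in the sterol ring and was at 300.1, 232, 286 and 249 CPM on normal chow and at 207, 206, 239 and 258 CPM on high salt. High salt 1 and 2 were below every normal chow library, while 3 and 4 lay among them. The log2 fold change was -0.23 ± 0.11 (edgeR unadjusted p = 0.0458, adjusted p = 0.444). Hsd17b7 stood at 95.6, 100.1, 109 and 83.9 CPM on normal chow and at 139, 63.0, 160.0 and 149 CPM on high salt. High salt 1, 3 and 4 were above every normal chow library, and high salt 2 was below every one of them. Over all 8 libraries its log2 fold change was 0.39 ± 0.28 (adjusted p = 0.682), and without high salt 2 it was 0.61 (edgeR adjusted p = 0.0361).

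Lbr differed little in size but its groups did not overlap. It was at 12.2, 13.0, 11.8 and 12.7 CPM on normal chow and at 14.6, 14.2, 13.8 and 13.3 CPM on high salt, with a log2 fold change of 0.17 ± 0.09 (adjusted p = 0.544). Among the members, 2 had groups that did not overlap, Lbr and Soat2, both higher on high salt, and 0 were apart in the other direction. Over all genes 6.36% did not overlap, 2.98% higher and 3.37% lower. The remaining genes of these steps had log2 fold changes of 0.30 ± 0.33 (Msmo1), 0.19 ± 0.28 (Cyp51), 0.04 ± 0.21 (Nsdhl), -0.05 ± 0.19 (Sc5d), -0.07 ± 0.11 (Tm7sf2) and -0.21 ± 0.25 (Dhcr7). Per kilobase, Sc5d was the highest of the 33 members at 189 CPM, followed by Insig1 at 143, Ebp at 107 and Hmgcs1 at 81.2. The exons of Tm7sf2 overlap those of Vps51, and their reads may be shared.

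**Figure D4:**
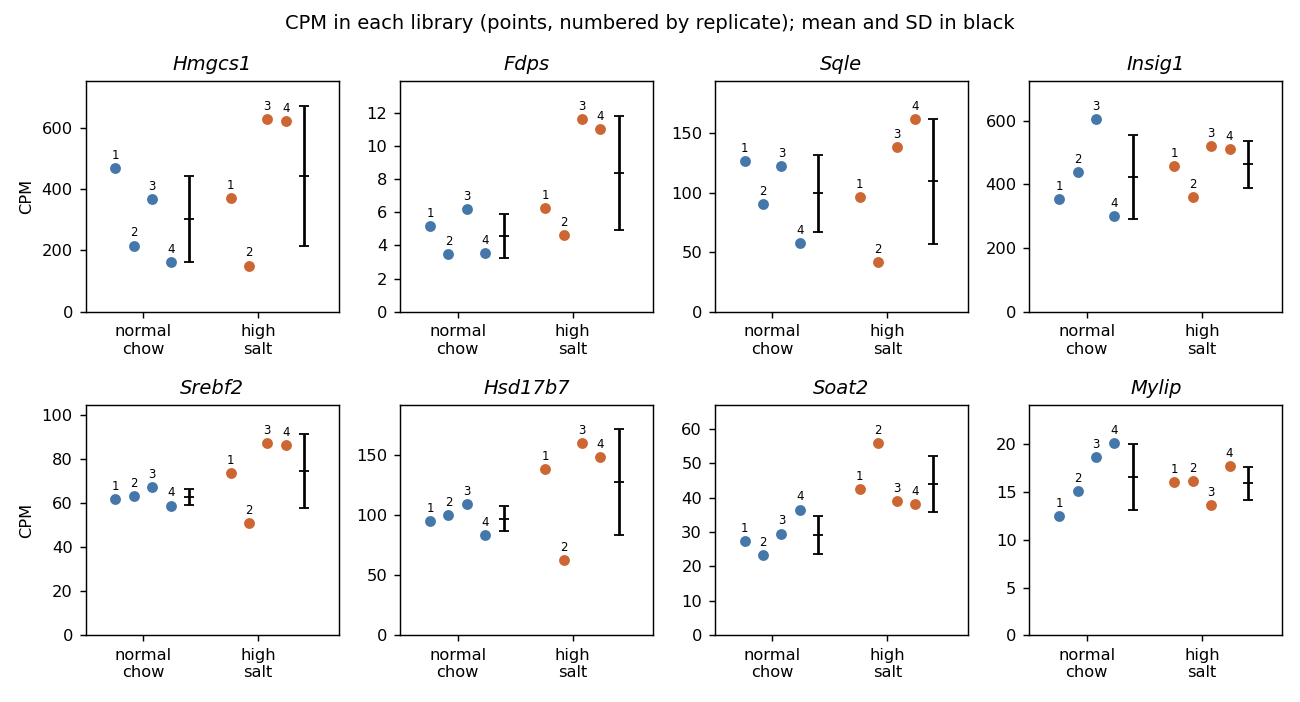
CPM in each library (y axis, from 0) for 8 members by diet (x axis), with points numbered by library and the mean and SD in black. Library 2 of high salt is the lowest of its group for Hmgcs1, Fdps, Sqle, Insig1, Srebf2 and Hsd17b7 and the highest for Soat2, whose high-salt libraries (38.2 to 55.8 CPM) all lie above its normal chow libraries (23.4 to 36.5 CPM).

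In the sensing machinery no gene stood out between the diets. Srebf2 went from 62.7 ± 3.48 to 74.5 ± 16.9 CPM, a log2 fold change of 0.25 ± 0.15 (adjusted p = 0.591). Insig1 was at 424 ± 132 and 463 ± 73.2 CPM (0.13 ± 0.21, adjusted p = 0.885). Insig2, the relative of Insig1 whose transcription SREBP2 does not drive, was at 71.2 ± 10.8 and 71.7 ± 18.1 CPM (0.01 ± 0.17). Scap (-0.01 ± 0.18), Mbtps1 (-0.02 ± 0.10) and Mbtps2 (0.03 ± 0.11) were all near 0. Scap was highest in normal chow 1 at 156 CPM, against 77.4 to 121 CPM in the other 7 libraries. The exons of Mbtps2 overlap those of Yy2, on the same strand.

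Soat2, the sterol O-acyltransferase that esterifies cholesterol in hepatocytes for storage and lipoproteins, had the smallest p of the members. Its gene lies on chromosome 15 at 102150526 to 102163474. It stood at 27.4, 23.4, 29.6 and 36.5 CPM on normal chow and at 42.6, 55.8, 39.1 and 38.2 CPM on high salt. Every high-salt library was above every normal chow library. The mean went from 29.2 ± 5.50 to 43.9 ± 8.14 CPM, a log2 fold change of 0.59 ± 0.15 with an interval of 0.26 to 0.92. The edgeR test gave an unadjusted p of 0.00238 and an adjusted p of 0.174. DESeq2 gave an adjusted p of 0.0214, and the authors' deposited table lists a log2 fold change of 0.58 with an adjusted p of 0.0245. An adjusted p below 0.05 is listed for 217 of 15342 genes (1.41%) in the authors' deposited table, and among the members for 1, Soat2. Over the alternatives tried, the log2 fold change of Soat2 was between 0.41 and 0.71 and the adjusted p between 0.0214 and 0.358. Within high salt, Soat2 ran opposite to the target mean (r = -0.98), and library 2 was its highest. Within normal chow r was only -0.45, with library 4 the highest and library 2 the lowest for Soat2. Over all 8 libraries, with diet means kept, r was -0.30.

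The other genes of transport differed by less. Stard4 was at 202 ± 18.7 and 216 ± 35.9 CPM, with a log2 fold change of 0.10 ± 0.12. Npc1 and Npc2, which pass cholesterol out of lysosomes, had 0.09 ± 0.13 and -0.07 ± 0.10. In the LXR arm, Nr1h3 (LXR alpha) had 0.07 ± 0.07 and Nr1h2 (LXR beta) 0.03 ± 0.11. Mylip encodes IDOL, the ubiquitin ligase through which LXR lowers lipoprotein receptors. It was at 12.5, 15.1, 18.6 and 20.1 CPM on normal chow and at 16.1, 16.2, 13.6 and 17.8 CPM on high salt. The high-salt libraries of Mylip lay within the normal chow range, and the log2 fold change was -0.06 ± 0.14 (adjusted p = 0.926).

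A list of 40 further genes of sterol handling was read alongside, of which 39 were tested. By edgeR 0 were called in either direction, DESeq2 called 1 higher and limma-voom 0, and at an unadjusted p below 0.05 there was 1 higher and 1 lower. Their median log2 fold change was -0.00. Coq2, which joins the polyprenyl tail to the ring of ubiquinone, was at 32.6 ± 1.69 CPM on normal chow and 28.6 ± 1.57 CPM on high salt (log2 fold change -0.19 ± 0.08, edgeR adjusted p = 0.419). Stard3, a late endosomal sterol carrier, had 0.21 ± 0.11 (adjusted p = 0.528). In this list 7 genes (17.9%) were lowest in both low libraries, against 80.0% of the targets, from whose mean those libraries were picked.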

How the data were processed

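Per the file headers, the authors deposited raw whole-number read counts. Their deposited table also lists, per the file headers, the linear fold of high salt over normal chow, that fold on the log2 scale, and a raw and an adjusted p-value, used only for comparison. The submitters' processing notes name GRCm38 and the tools HTSeq 0.6.0, StringTie 1.3.2d and HISAT2 2.1.0. What each tool did, the strand setting and the handling of multiply matching reads are not given in the sources used, so reads of overlapping genes may be pooled or lost. Exons of 13 members overlap another gene.

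From the deposited counts, edgeR 4.0.16 in R 4.3.3 fitted diet with TMM factors, filterByExpr and a robust quasi-likelihood model. Benjamini-Hochberg adjustment ran over 13341 genes, the two-sided threshold for a call was 0.05, and SEs were derived from F statistics. The common biological coefficient of variation was 0.147. Correlations used log2 CPM with a prior count of 2. The scripts were tested on simulated data. Members, targets and lists were chosen with earlier results of these data known. All members are described by role, with every library's value for Hmgcs1, Fdps, Sqle, Insig1, Srebf2, Mylip and for members at an unadjusted p below 0.05. Libraries were also printed for Mvd, Hsd17b7, Lbr and Mbtps1, chosen after their values were seen. Of the other sterol genes the 3 of smallest p were taken. So were the 10 genes outside the members most like the target mean, among those averaging at least 1 CPM without a predicted-model name. Values of some genes under this rule are not reported here.

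Between libraries of a diet, chi-square over its degrees of freedom was 9.69 to 36.7, above sampling noise, so each library counted as 1 sample. Alternatives covered normalization, the filter on low counts, DESeq2 1.42.0, limma-voom (limma 3.58.1), a replicate block and each library left out. Levels per kilobase used merged exons of GENCODE M21.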

Additional observations from a re-analysis of the deposited data

How the results depend on the processing

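No member was called lower under any alternative, and members called higher stayed at 0 except with DESeq2 (1, Soat2), without high salt 2 (range 0 to 1 over single libraries left out) and without both normal chow 1 and high salt 2 (1), a choice made after seeing the data. Members higher at an unadjusted p below 0.05 (2) became 4 with total counts, 1 with no filter, 9 without both libraries and 1 to 6 without single ones. Those lower (1) became 0 with total counts, upper quartile, the replicate block or without both libraries, and 0 to 2 without single ones. Over all genes the 40 calls (20 higher, 20 lower) became 220 with no filter (89 and 131), 238 with DESeq2 (93 and 145), 17 with limma-voom (8 and 9) and 69 without both libraries, 43 of them lower. With total counts 11 were lower, and the median of all genes moved from 0.01 to 0.07. Without single libraries there were 4 to 57 calls, 2 to 25 higher and 1 to 32 lower. Leaving out normal chow 2 gave 4, high salt 1 gave 5, normal chow 3 gave 11 and high salt 2 gave 18.

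Of the other sterol genes, 1 was called higher with no filter and with DESeq2. At an unadjusted p, 2 were higher with total counts, 3 without both libraries and 1 to 3 without single ones, and 0 were lower with total counts, no filter or the replicate block and 0 to 2 without single libraries. Median log2 fold changes without single libraries were 0.00 to 0.15 for members and -0.02 to 0.26 for targets (0.37 without both), and median pairwise r was 0.84 to 0.92 for targets and -0.037 to 0.045 for other members.

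The sign of the log2 fold change turned for some members. With total counts the values were 0.051 (Pmvk), 0.047 (Lss), 0.0095 (Sc5d), 0.055 (Scap), 0.043 (Mbtps1) and 0.0034 (Mylip). With upper quartile Pmvk was at 0.00061. With limma-voom they were 0.018 (Lss), 0.032 (Scap) and -0.0076 (Insig2). Without both libraries they were 0.14 (Acat2), 0.28 (Pmvk), 0.41 (Lss), 0.0032 (Tm7sf2), 0.11 (Sc5d), 0.12 (Dhcr7), 0.17 (Scap) and -0.0087 (Nr1h2). Without single libraries the ranges that crossed 0 were -0.24 to 0.018 (Acat2), -0.14 to 0.15 (Pmvk), -0.033 to 0.43 (Idi1), -0.0011 to 0.30 (Fdft1), -0.11 to 0.40 (Sqle), -0.19 to 0.27 (Lss), -0.10 to 0.19 (Nsdhl), -0.16 to 0.070 (Sc5d), -0.15 to 0.21 (Scap), -0.0066 to 0.34 (Insig1), -0.18 to 0.10 (Insig2), -0.11 to 0.037 (Mbtps1), -0.027 to 0.065 (Mbtps2), -0.017 to 0.20 (Npc1), -0.14 to 0.00052 (Npc2), -0.052 to 0.11 (Nr1h2) and -0.17 to 0.048 (Mylip). The cause was not tested.

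The replicate numbers only name the libraries. Deviations of same-numbered libraries from their group means correlated at -0.15, -0.20, 0.09 and 0.01, so the replicate block is given only here. It called 11 genes, 8 higher and 3 lower, and 0 members, and turned Lss to 0.013, Scap to 0.032 and Insig2 to -0.0069.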

Other observations

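Genes outside the 33 members, averaging at least 1 CPM and without a predicted-model name, were ranked by r with the mean of the SREBP2 targets. The closest 10 were led by genes of other pathways. With diet means removed, r over the 8 libraries was 0.99 for Apol9a and 0.96 for Apol9b, mouse apolipoprotein L genes, and 0.98 for Gbp3, an interferon-inducible guanylate-binding protein. It was 0.98 for Rnd2, a small GTPase, 0.97 for Ikbkb, the NF-kappaB kinase subunit, and 0.97 for Ccrl2, a chemokine-binding receptor. Acly, the ATP citrate lyase that supplies cytosolic acetyl-CoA, was the only gene of the sterol lists among them (r = 0.97, mean 496 CPM). Hmgn2, a nucleosome-binding protein, was at 0.96, Ipo11, a nuclear import receptor, at 0.96, and Prim2, a primase subunit, at 0.96. Between the diets, edgeR's adjusted p for these 10 ran from 0.217 for Rnd2 to 0.956 for Ccrl2.

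An r above 0.9 with the target mean was found in 14 of 33 members (42.4%), in 2 of 39 other sterol genes (5.13%) and in 94 of the 12346 genes of at least 1 CPM (0.761%). All 14 of these members were SREBP2 targets, and the highest of the other members was Srebf2 (r = 0.88). For this count each target was set against the mean of the other targets. All points share the same 8 libraries, and the 10 genes were picked for this value, so it carries no test.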
